A study of Mus musculus with 4 samples.

Results

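The 10 genes described here are Cd59b, Bmf, Disp2, Chst14, Exd1, Itpka, Jmjd7, Capn3, Golm2 and Spata5l1. They lie on mouse chromosome 2 after the catalase gene Cat in RefSeq gene order, and each differed by 2-fold or more, the same way on both diets, between catalase knockout and wild-type liver. They were found by matching the accession of each array probe, without its version, to RefSeq transcripts of these genes. The match gave 11 probes for the 10 genes, of 20886 genes named on the array. The genes were chosen by their knockout against wild-type differences on normal and on high-fat diet, so those differences are given as a description, with no test.

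The study crossed genotype with diet in male mice, with 1 liver sample and 1 array for each of the 4 groups. The groups were catalase knockout on normal diet (18% of calories from fat), wild type on normal diet, catalase knockout on high-fat diet (60.3% of calories from fat) and wild type on high-fat diet. All mice ate their diet for 11 weeks, from 29 to 40 weeks of age. Whether each sample was 1 animal or a pool is not given, and the labels name no mouse strain, no embryonic stem cell line and no number of backcrosses. With 1 array a group nothing has a replicate. An error after ± comes from the scanner, combined over the 2 arrays compared, and leaves out the variation among animals.

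Catalase breaks down hydrogen peroxide in the peroxisome. In general, a knockout allele made in stem cells of one mouse strain and bred into another carries donor chromosome on both sides of the targeted gene, which breeding shortens but seldom removes. Genes in such a passenger segment can differ between knockout and wild-type animals through strain variants that have no link to the lost protein. A short oligonucleotide probe can also bind less well to a transcript whose sequence differs from the probe, so that its signal is lower at the same transcript level. In these 4 samples the effect of catalase loss, any strain-derived DNA around Cat and any variant under a probe cannot be told apart, because each would follow the genotype label.

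The targeted gene was read by 2 probes. The brighter Cat probe had a processed signal, in linear scanner units, of 2201 in the knockout liver on normal diet and 2220.5 in the knockout liver on high-fat diet, against 29880.3 and 27514 in the wild-type livers on normal and high-fat diet. The knockout was 13.5-fold lower on normal diet and 14-fold lower on high-fat diet, and both knockout arrays lay below both wild-type arrays. By the dimmer Cat probe it was 17.9-fold lower on normal diet and 20.9-fold lower on high-fat diet. Both Cat probes were well above background on all 4 arrays, those of the knockout included. The labels do not place the probes inside or outside the deleted part. All 6 hepatocyte markers were well above background on every array. Between 23757 and 25184 of 39429 probes were well above background by the scanner's flag, and 0 spots were saturated.

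Of the 10 genes, 7 fell and 3 rose in knockout liver on both diets. Here rose and fell mean 2-fold or more, as the log2 difference of signals scaled to each array's 75th percentile. A probe short of the scanner's flag for well above background on 1 of the arrays compared was given there the lowest signal that carried the flag, or its own signal if higher. Sizes against the lowest flagged signal are written as at least so many fold. By the same rule 574 of 14702 genes changed on normal diet (3.9%; 1.4% rose and 2.5% fell), 609 of 14844 on high-fat diet (4.1%; 2.51% rose and 1.59% fell), and 75 of 14221 the same way on both (0.527%). These 75 genes include Cat and the 10 members, and 48 fell (0.338%) and 27 rose (0.19%). Nothing is read from the count of 10 of 10, since the rule selected it. Capn3 has 2 probes, and each of the other 9 genes has 1, so no second probe bears on their values. Under a background correction that adds an offset (normexp on the median spot signal, an alternative chosen after seeing the data), all 10 kept their direction, but only Exd1, Jmjd7 and Capn3 reached 2-fold on both diets.

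Promoter sequences are printed for the 5 genes with a single RefSeq promoter window that were well above background on all 4 arrays, because these are the members whose size of change was measured on both sides. The strand shown is that of the gene, 5′ to 3′, for the 250 bases before the annotated start in RefSeq build GRCm38.p6, which is the sequence of the C57BL/6J strain and not that of the animals on the arrays. Capitals mark a GC box, the letters GGGCGG or CCGCCC for either strand, and a TATA box, the letters TATAAA or TTTATA. Only the TATA pair can overlap each other, and they do not in these windows.
Cd59b, chr2:104070816-104071065, plus strand: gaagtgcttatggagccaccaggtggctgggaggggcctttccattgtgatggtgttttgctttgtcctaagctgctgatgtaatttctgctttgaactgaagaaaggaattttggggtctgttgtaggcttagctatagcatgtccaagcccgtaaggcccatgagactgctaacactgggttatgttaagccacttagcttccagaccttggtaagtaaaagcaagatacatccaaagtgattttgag
Chst14, chr2:118926247-118926496, plus strand: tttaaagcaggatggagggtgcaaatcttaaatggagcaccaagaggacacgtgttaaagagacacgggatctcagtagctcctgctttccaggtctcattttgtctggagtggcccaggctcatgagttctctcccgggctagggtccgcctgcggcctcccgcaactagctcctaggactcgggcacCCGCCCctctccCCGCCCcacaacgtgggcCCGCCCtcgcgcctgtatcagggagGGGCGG
Exd1, chr2:119547628-119547877, minus strand: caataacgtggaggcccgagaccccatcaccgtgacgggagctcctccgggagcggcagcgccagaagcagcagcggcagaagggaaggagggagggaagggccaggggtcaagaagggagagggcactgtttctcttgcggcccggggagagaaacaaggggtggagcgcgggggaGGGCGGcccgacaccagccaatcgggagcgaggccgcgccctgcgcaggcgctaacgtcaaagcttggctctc
Itpka, chr2:119742087-119742336, plus strand: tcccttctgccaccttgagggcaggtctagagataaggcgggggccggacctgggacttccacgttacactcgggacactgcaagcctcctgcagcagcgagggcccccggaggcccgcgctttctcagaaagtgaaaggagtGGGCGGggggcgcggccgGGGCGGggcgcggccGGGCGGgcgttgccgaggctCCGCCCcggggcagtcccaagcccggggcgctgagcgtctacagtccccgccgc
Jmjd7, chr2:120027233-120027482, plus strand: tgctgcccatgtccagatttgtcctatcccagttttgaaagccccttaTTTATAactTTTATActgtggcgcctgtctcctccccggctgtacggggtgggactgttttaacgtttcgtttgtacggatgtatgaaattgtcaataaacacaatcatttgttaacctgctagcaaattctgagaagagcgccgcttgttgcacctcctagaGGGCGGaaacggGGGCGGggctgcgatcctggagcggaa

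The windows differed widely in composition. Of the 10 genes 9 had a window, 12 windows in all, and their GC content ran between 45.6% for Cd59b and 72.8% for Itpka, with a median of 54.8% against 52.4% for all 32851 windows. A GC box was found in 5 of the 12, those of Chst14, Exd1, Itpka, Jmjd7 and Golm2, and in 32.7% of all windows. A TATA box was found in 1, that of Jmjd7, and in 12.4% of all windows. The genes that rose, Chst14, Exd1 and Itpka, all had a GC box, and so did Jmjd7 and Golm2, which fell. A match describes these letters only.

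Jmjd7 encodes a JmjC-domain hydroxylase of lysines. Its single probe read 54.3 in the knockout liver on normal diet and 67.9 in the knockout liver on high-fat diet, against 438 and 384 in the wild-type livers on normal and high-fat diet. All 4 arrays were well above background, and both knockout arrays lay far below both wild-type arrays. On the log2 scale Jmjd7 fell by 3.01 ± 0.25 on normal diet and by 2.67 ± 0.23 on high-fat diet, or 8.05-fold and 6.38-fold. It is the largest decrease among the members measured on all 4 arrays. The next measured gene in chromosome order, the phospholipase gene Pla2g4b, read 6871 in the knockout liver on normal diet and 7443 in the knockout liver on high-fat diet, against 6332 and 8253 in the wild-type livers on normal and high-fat diet, and its differences of 0.12 ± 0.20 on normal diet and -0.33 ± 0.20 on high-fat diet had opposite signs. The RefSeq table places a noncoding RNA gene over Jmjd7, and likewise 1 over Exd1 and 1 over Capn3. The files do not say whether the probes of these members also read the noncoding RNA.

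Capn3 encodes calpain 3, a calcium-dependent protease best known from skeletal muscle. Its brighter probe read 10.3 in the knockout liver on normal diet and 16.1 in the knockout liver on high-fat diet, against 279 and 189.8 in the wild-type livers on normal and high-fat diet. Neither knockout array was well above background, whereas both wild-type arrays were, so Capn3 was at least 12.3-fold lower on normal diet and at least 9.76-fold lower on high-fat diet. The second Capn3 probe, matched to another transcript of the gene, read 5.86 in the knockout liver on normal diet and 5.63 in the knockout liver on high-fat diet, against 6.11 and 6.59 in the wild-type livers on normal and high-fat diet and was not well above background on any array, so it bears on neither direction. With both Capn3 probes averaged, the knockout was again set to the lowest flagged signal. The log2 bound was then -0.87 on normal diet and -0.86 on high-fat diet. A bound short of 2-fold does not show that the difference itself was. The muscle markers Ckm, Acta1 and Myh4 were also not well above background on any of the 4 arrays. The other measured calpain genes, Capn1, Capn2, Capn5, Capn6, Capn7 and Capn10, and the small subunit gene Capns1 did not differ by 2-fold between genotypes on either diet. Their log2 differences lay between -0.47 and 0.20 on normal diet and between -0.01 and 0.33 on high-fat diet.

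Disp2 encodes a relative of Dispatched, the membrane protein that releases Hedgehog ligands from cells. Its probe read 5.39 in the knockout liver on normal diet and 7.78 in the knockout liver on high-fat diet, against 79.9 and 107 in the wild-type livers on normal and high-fat diet. The knockout arrays were not well above background and the wild-type arrays were, so Disp2 was at least 3.53-fold lower on normal diet and at least 5.48-fold lower on high-fat diet. Spata5l1, which encodes an AAA ATPase of ribosome biogenesis, had the same pattern of flags. Its probe read 19.2 in the knockout liver on normal diet and 15.4 in the knockout liver on high-fat diet, against 65.2 and 62 in the wild-type livers on normal and high-fat diet, and it was at least 2.88-fold lower on normal diet and at least 3.19-fold lower on high-fat diet. Both genes are dim in wild-type liver, so background sets the size of the bound.

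Golm2, formerly Casc4, encodes a Golgi membrane protein. Its probe read 22.9 in the knockout liver on normal diet and 53.2 in the knockout liver on high-fat diet, against 110.0 and 112 in the wild-type livers on normal and high-fat diet. Only the knockout array on normal diet missed the flag, and since the signal there was just over the lowest flagged one, the size is the ratio as measured. Golm2 was 4.78-fold lower on normal diet, a log2 difference of -2.26 ± 0.43, and 2.38-fold lower on high-fat diet, a difference of -1.25 ± 0.27. The 2 knockout arrays were therefore further apart than the 2 wild-type arrays. Golm1, its relative on another chromosome, differed by -0.76 ± 0.21 on normal diet and 0.98 ± 0.21 on high-fat diet.

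Cd59b encodes one of the mouse copies of CD59, which blocks the membrane attack complex of complement. It is the member nearest to Cat, 7 protein-coding genes on. Its probe read 108 in the knockout liver on normal diet and 99.2 in the knockout liver on high-fat diet, against 278 and 255 in the wild-type livers on normal and high-fat diet, and the knockout arrays lay below the wild-type arrays. Cd59b fell by 1.36 ± 0.22 on normal diet and by 1.54 ± 0.22 on high-fat diet. The next measured gene is its near copy Cd59a, which gave 3013 in the knockout liver on normal diet and 4050.2 in the knockout liver on high-fat diet, against 5953 and 7329 in the wild-type livers on normal and high-fat diet. Cd59a differed by -0.98 ± 0.20 on normal diet and -1.03 ± 0.20 on high-fat diet, just short of 2-fold on normal diet. The 2 genes are close in sequence, and whether each probe reads only its own transcript was not tested.

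Bmf encodes a BH3-only protein that promotes apoptosis. Its probe read 277 in the knockout liver on normal diet and 235 in the knockout liver on high-fat diet, against 583 and 589.7 in the wild-type livers on normal and high-fat diet, with both knockout arrays below both wild-type arrays. Bmf fell by 1.07 ± 0.21 on normal diet and by 1.5 ± 0.21 on high-fat diet, and with each array scaled to its median probe the normal-diet difference was -0.93, short of 2-fold. Of its BH3-only relatives, Bbc3, Bid, Bad, Bik and Pmaip1 were measured on both diets, and none changed the same way on both. Pmaip1 came nearest to 2-fold, with -0.41 ± 0.27 on normal diet and 0.91 ± 0.23 on high-fat diet.

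The 3 genes that rose lie close together, between the genes Disp2 and Jmjd7 in chromosome order. Chst14 encodes the sulfotransferase that adds 4-O-sulfate to dermatan. It read 255 in the knockout liver on normal diet and 406 in the knockout liver on high-fat diet, against 104 and 89.4 in the wild-type livers on normal and high-fat diet, and both knockout arrays lay above both wild-type arrays. Chst14 rose by 1.29 ± 0.22 on normal diet and by 2.01 ± 0.22 on high-fat diet. The chondroitin and carbohydrate sulfotransferase genes Chst12 and Chst13, the measured relatives, were not at 2-fold on either diet. Chst12 differed by 0.11 ± 0.26 on normal diet and 0.32 ± 0.23 on high-fat diet, and Chst13 by 0.63 ± 0.21 on normal diet and 0.21 ± 0.21 on high-fat diet.

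Exd1 encodes a protein with an exonuclease domain that in mouse works in the piRNA pathway of germ cells. It read 969 in the knockout liver on normal diet and 1066 in the knockout liver on high-fat diet, against 338 and 427 in the wild-type livers on normal and high-fat diet, again with no overlap between genotypes. Exd1 rose by 1.53 ± 0.21 on normal diet and by 1.14 ± 0.21 on high-fat diet. Its relative Exd2 differed by -0.03 ± 0.23 on normal diet and -0.20 ± 0.23 on high-fat diet. Itpka encodes a kinase of inositol trisphosphate, the messenger that releases calcium. It read 960.4 in the knockout liver on normal diet and 1359.6 in the knockout liver on high-fat diet, against 450.5 and 583 in the wild-type livers on normal and high-fat diet, and Itpka rose by 1.1 ± 0.21 on normal diet and by 1.04 ± 0.20 on high-fat diet. With each array scaled to its median probe, Itpka differed by 0.99 on high-fat diet, just short of 2-fold. The other kinases of the family, Itpkb and Itpkc, were not at 2-fold. Itpkb differed by -0.21 ± 0.24 on normal diet and 0.09 ± 0.25 on high-fat diet, and Itpkc by -0.42 ± 0.21 on normal diet and -0.37 ± 0.21 on high-fat diet.

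**Figure D1:**
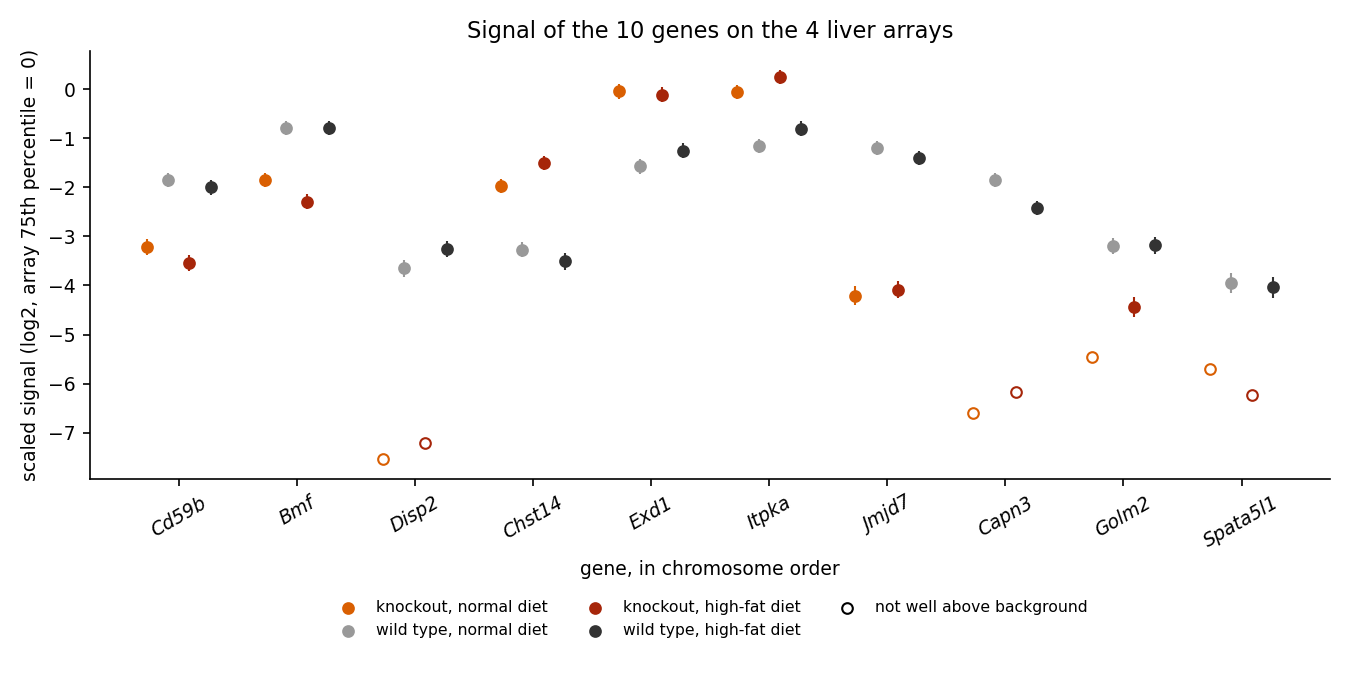
Scaled log2 signal (array 75th percentile at 0) of the 10 genes in chromosome order on the 4 arrays, with the scanner's error as bars and open points for arrays where the probe was not well above background. Both knockout points lie above both wild-type points for Chst14, Exd1 and Itpka and below them for the other genes.

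Across the members the knockout and wild-type arrays did not overlap for 10 of 10, a separation that 32% of all genes measured on both diets also showed. The rule that chose the members favours this separation and large differences, so neither is read as a result about them. The size of the difference varied more. The median of the 10 log2 differences, bounds included, was -1.44 on normal diet and -1.52 on high-fat diet, against -0.02 and -0.03 over all genes measured. It pools the 7 genes that fell with the 3 that rose. Just inside the rule stood Itpka, with 1.1 ± 0.21 on normal diet and 1.04 ± 0.20 on high-fat diet. Just outside it among the genes of this stretch stood Cd59a, as above, Ganc, with 1.16 ± 0.20 on normal diet and 0.90 ± 0.20 on high-fat diet, and Ino80, with -1.02 ± 0.21 on normal diet and -0.88 ± 0.21 on high-fat diet.

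**Figure D2:**
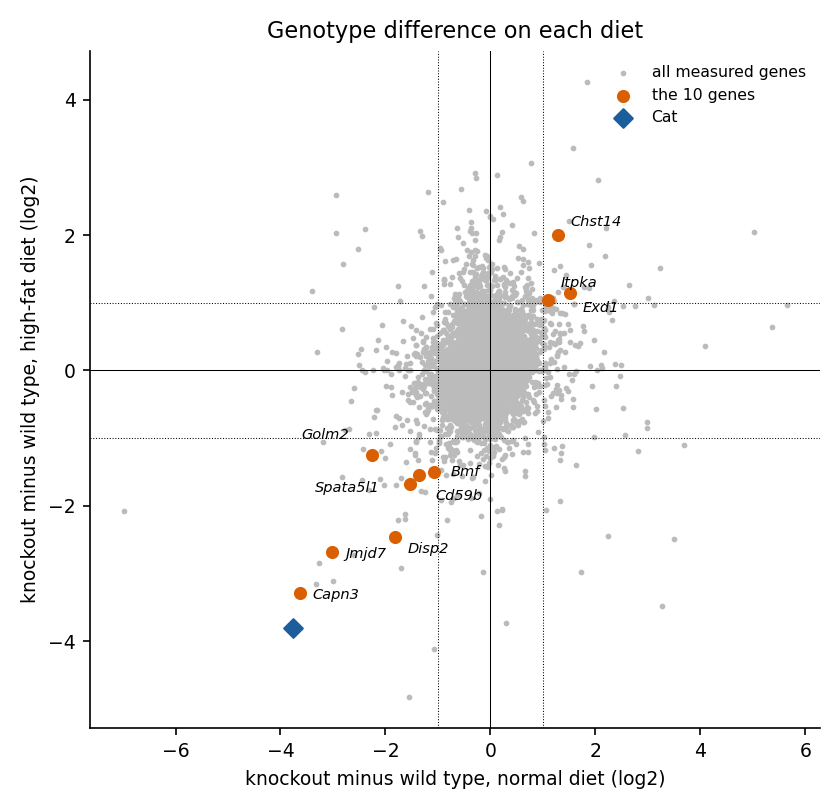
Log2 difference, knockout minus wild type, on normal diet (horizontal) and on high-fat diet (vertical) for every gene measured on both diets, with bounds used where a probe was not well above background. The 7 genes that fell sit at the lower left with Cat, and Chst14, Exd1 and Itpka sit at the upper right, beyond the dotted lines at 2-fold.

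The position of the genes was then described by their order among the 1114 chromosome 2 genes measured on both diets. Cd59b was the 6th measured gene after Cat and Bmf the 61st. From Bmf to Spata5l1 there were 69 measured genes, and 9 of them were members. Counted in protein-coding genes of the RefSeq table, Bmf came 113 genes after Cat and Spata5l1 216 genes after it. Besides Cat, 3 other chromosome 2 genes met the 2-fold rule on both diets, namely Pfkfb3, Dnm1 and Lrp2, and all 3 lie before Cat, the nearest 168 measured genes away. Every gene between Cat and Spata5l1 that met the rule is a member, so the 0 of 119 others is fixed by the choice. With the members and Cat, 14 of the 1114 chromosome 2 genes met the rule. Without them 0.272% did, a share that ranked 16th among the 21 chromosomes. Genes that met the rule were thereby left out of chromosome 2 only, so the choice lowered this rank and nothing is read from it.

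**Figure D3:**
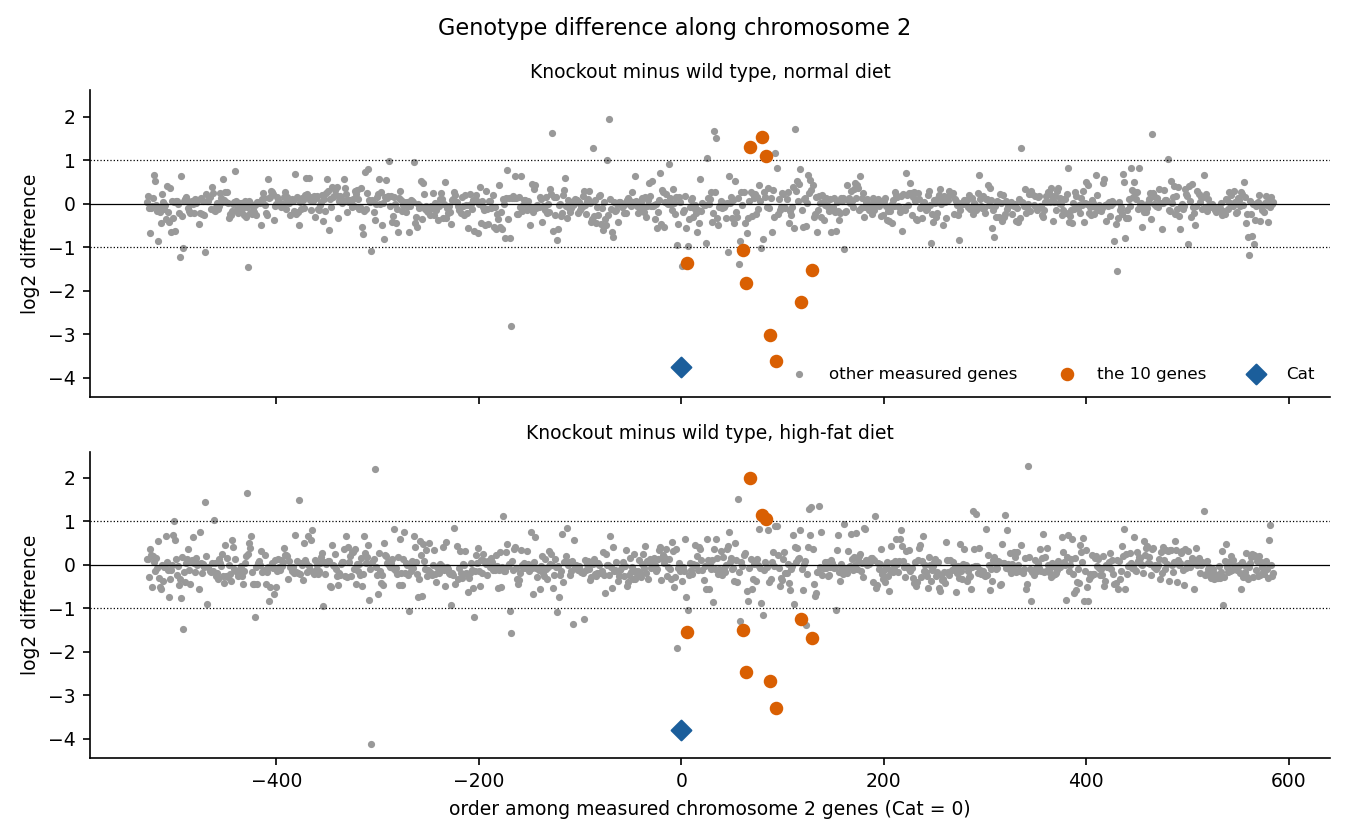
Log2 difference, knockout minus wild type, on normal diet (upper) and high-fat diet (lower) against the order of measured chromosome 2 genes, with Cat at 0. After Cat, the points past the dotted lines at 2-fold the same way in both panels are those of the 10 genes, and before it those of Pfkfb3, Dnm1 and Lrp2.

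How many other genes pass a lower threshold is not fixed by the choice of members. At 1.5-fold or more the same way on both diets, 11 of the 119 other genes between Cat and Spata5l1 met the rule, or 9.24%, of which 6 were higher and 5 lower in the knockout. Over all measured genes, members included, the share was 2.06%. It was 1.55% in the 129 measured genes just before Cat (2 genes), 0.658% on chromosome 2 beyond Spata5l1 (3 of 456) and 1.97% off chromosome 2 (258 of 13107). Within the stretch it was 8.47% between Cat and Bmf (5 of 59) and 10% between Bmf and Spata5l1 (6 of 60). In consecutive blocks of 50 measured genes after Cat, members left out, it was 8.16% (4 of 49), 13.95% (6 of 43) and 2.08% (1 of 48). The last of these blocks holds Golm2 and Spata5l1 and runs on past Spata5l1. The ends of the stretch were set by the members, and the values come from the same arrays that chose them, so these shares are a description.

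The 11 genes were Cd59a, Mpped2, Fibin, Arhgap11a, 1700054M17Rik, Knstrn, Ino80, Chp1, Ganc, Zfp106 and Mfap1a. Those before Bmf are the first 5 named. Of these, Mpped2 and Fibin were near the threshold on high-fat diet, each at 1.52-fold, as was Knstrn, past Bmf, at 1.51-fold. Arhgap11a was not well above background on either wild-type array, nor 1700054M17Rik on either knockout array, so their sizes depend on background. Chp1, which encodes a calcineurin B-like calcium-binding protein, read 16743 in the knockout liver on normal diet and 18730.5 in the knockout liver on high-fat diet, against 29354 and 36780.3 in the wild-type livers on normal and high-fat diet. It differed by -0.81 ± 0.20 on normal diet and -1.15 ± 0.20 on high-fat diet, and its second probe by -0.72 and -0.88. Ganc, a neutral alpha-glucosidase gene that precedes Capn3, read 1989.8 in the knockout liver on normal diet and 2122 in the knockout liver on high-fat diet, against 892 and 1005 in the wild-type livers on normal and high-fat diet. Zfp106, which follows Capn3, read 1939 in the knockout liver on normal diet and 2408 in the knockout liver on high-fat diet, against 1109.8 and 1146 in the wild-type livers on normal and high-fat diet and differed by 0.81 ± 0.20 on normal diet and 0.89 ± 0.20 on high-fat diet. The nearest measured gene on each side of Capn3 was thus higher in the knockout, while Capn3 was lower.

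Second probes did not always agree in this stretch. Ino80, a chromatin remodeller gene next to Exd1, had a second probe with -0.27 on normal diet and 0.91 on high-fat diet. The second probe of Mfap1a, a splicing factor gene with a close copy in Mfap1b beside it, gave 0.14 and -0.14 against 0.79 and 0.81 on its brighter probe. On the other side of Cat, the glutamate transporter gene Slc1a2, 4 measured genes before it, lies nearby, and its brightest probe read 5059.9 in the knockout liver on normal diet and 3033 in the knockout liver on high-fat diet, against 9788 and 10115 in the wild-type livers on normal and high-fat diet. That probe differed by -0.95 ± 0.20 on normal diet and -1.91 ± 0.20 on high-fat diet, and the dimmest of its 3 probes met the 2-fold rule with -1.34 and -1.51. All 3 Slc1a2 probes read lower in the knockout, so whether every 2-fold gene near Cat lies after it depends on the probe taken for Slc1a2.

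**Figure D4:**
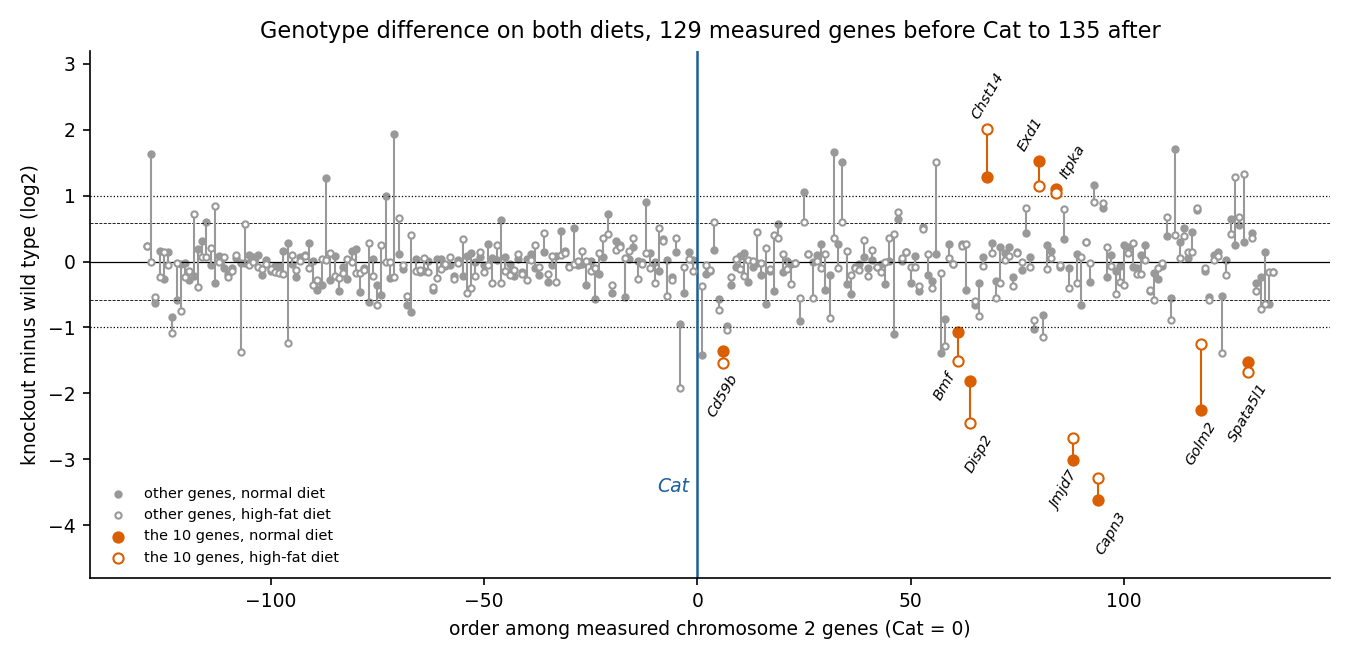
Log2 difference, knockout minus wild type, on normal diet (filled) and high-fat diet (open) joined by a line for each measured gene around Cat, in gene order. Among the other genes, 9.24% of those between Cat and Spata5l1 pass the dashed lines at 1.5-fold on both diets, against 1.55% of the 129 measured genes just before Cat.

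The genes right beside the members differed more than the median gene but mostly by less than 2-fold. Of the 35 non-member genes among the 2 measured on each side of a member, 0 met the 2-fold rule on both diets, 2 met it on normal diet and 3 on high-fat diet. Over all genes the shares were 0.527% on both, 3.9% on normal diet and 4.1% on high-fat diet. For the neighbours between Cat and Spata5l1 the 0 is fixed by the choice of members. The median absolute log2 difference of the 35 genes was 0.32 on normal diet and 0.36 on high-fat diet, against 0.17 and 0.18 over all measured genes. Srp14, beside Bmf, differed by -0.03 ± 0.06 on normal diet and -0.04 ± 0.06 on high-fat diet, and Rpap1, beside Itpka, by -0.08 ± 0.20 on normal diet and -0.05 ± 0.20 on high-fat diet. Knstrn, beside Disp2, differed by -0.67 ± 0.20 on normal diet and -0.60 ± 0.20 on high-fat diet.

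Of 36 listed relatives of the members by family or function, 28 were measured on both diets and 0 changed the same way on both. Over all genes 0.527% did so, so a count of 0 among 28 says nothing particular of the relatives. The single change among the 28 on either diet was that of Cd59a on high-fat diet, and Cd59a lies in the same stretch. Hrk, a BH3-only gene measured on normal diet only, was at least 2.29-fold lower there. Likeness of the 4 mean-centred signals was taken as Euclidean distance on the log2 scale. The search covered the 14346 genes flagged on 2 or more arrays, with the members and Cat among them then left out. Bmf was nearest to Pfkfb3 at 0.10, Spata5l1 to Gadd45g at 0.10 and Jmjd7 to Hspa1a at 0.36. These distances use the same 4 values that chose the members.

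Between diets most of the members measured differed by less than 2-fold, as did most genes on the array. The median absolute log2 difference of the members was 0.32 in the knockout, over 7 of them, and 0.23 in wild type, over 10. Over all genes measured it was 0.21 in the knockout and 0.17 in wild type. The diet differences did not choose the members, but they come from the same arrays as the genotype differences. In the knockout 1 of the 7 members measured rose and 0 fell, against 5.86% of all genes changed, with 4.22% risen and 1.64% fallen. In wild type 0 of 10 changed, against 4.09% of all genes, with 1.78% risen and 2.31% fallen. The 1 gene was Golm2, which differed by 1.01 ± 0.45 in the knockout and 0.01 ± 0.24 in wild type, and it did not reach 2-fold in the knockout under median scaling, quantile or cyclic loess normalization. The differences in wild type ran between -0.58 for Capn3 and 0.40 for Disp2. Jmjd7 differed by 0.12 ± 0.27 in the knockout and by -0.21 ± 0.21 in wild type, the first within the scanner error and the second at about its size.

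The genotype difference could also change in size between diets, within the limit that the choice of genes set on both. For the 6 members well above background on all 4 arrays, the high-fat minus normal-diet change in the log2 genotype difference ran between -0.43 for Bmf and 0.71 for Chst14. Chst14 differed more on high-fat than on normal diet, by 0.71 ± 0.31, and Itpka changed by -0.05 ± 0.29. Golm2 was not well above background in the knockout on normal diet, and no change is given for Disp2, Capn3 and Spata5l1, which have only bounds in the knockout.

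**Figure D5:**
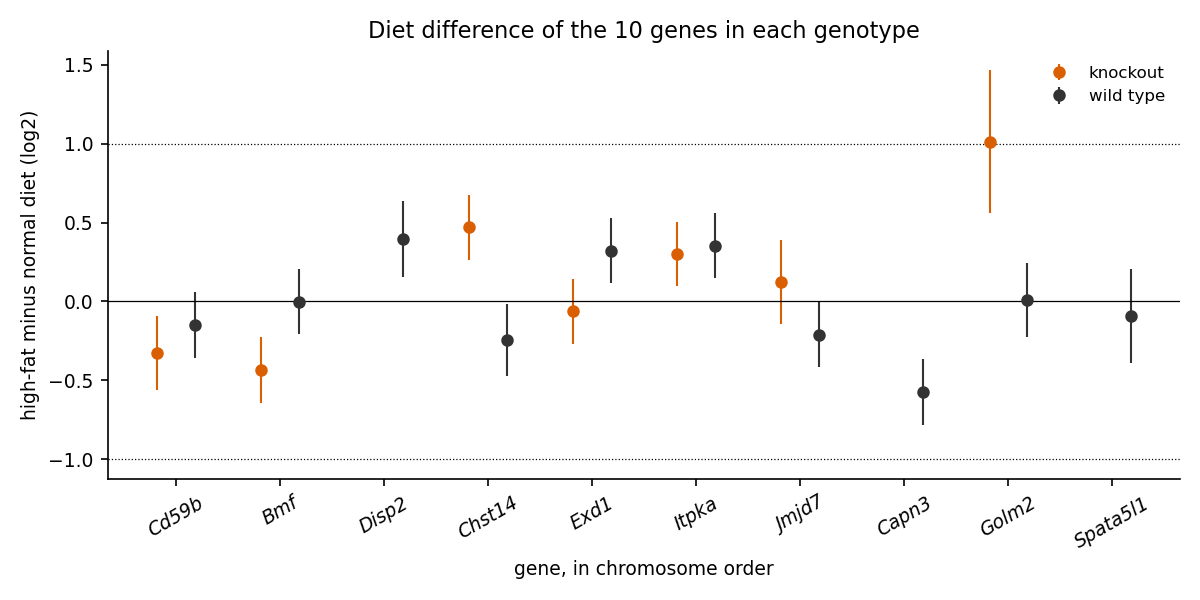
Log2 difference, high-fat minus normal diet, in knockout and wild-type liver for each of the 10 genes, with the scanner's error as bars; knockout points are missing where neither knockout array was well above background. Golm2 in the knockout reaches the dotted line at 2-fold, and the wild-type points lie between -0.58 and 0.40.

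Single markers of some cell types differed by 2-fold or more between genotypes, but none did so the same way on both diets. No endothelial, stellate cell or bile duct marker reached 2-fold on either diet. Over all genes 3.9% changed on normal diet and 4.1% on high-fat diet. The summed processed signal of 5 of 6 listed Kupffer cell and macrophage markers was 17713 in the knockout and 20754 in wild type on normal diet, and 52133 in the knockout and 23923 in wild type on high-fat diet. These sums are not scaled between arrays. Of these markers, 1 fell on normal diet (Marco) and 2 rose on high-fat diet (Adgre1 and Marco). Clec4f differed by -0.12 ± 0.20 on normal diet and 0.10 ± 0.20 on high-fat diet. The median log2 difference of the 5 was -0.14 on normal diet and 0.97 on high-fat diet. A hepatocyte marker and the erythroid marker Hba-a1 fell on high-fat diet, and a lymphocyte marker fell on normal diet. The median log2 differences on normal and high-fat diet were -0.11 and -0.33 for 6 hepatocyte markers, -0.06 and 0.17 for 4 endothelial markers, and -0.17 and 0.32 for 4 stellate cell markers. For the bile duct markers the medians were -0.93 over 3 measured on normal diet and -0.11 over 2 on high-fat diet, and their summed signal was 236 in the knockout and 439 in wild type on normal diet. For lymphocyte markers the medians were -0.26 and -0.19. Fewer cells of a type and less RNA per cell cannot be told apart in whole liver, and the part of cell makeup in the 10 differences was not tested.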

How the data were processed

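Liver RNA of 4 samples was labelled with Cy3 and read on 1-colour Agilent mouse arrays. The deposited spot intensity values were made with Feature Extraction 11.5.1.1, per the file headers, which also subtracted the background and gave a linear processed signal. GeneSpring GX 7.3 was used by the authors, per the series' design text. The 4 arrays shared a slide and a scan, so no batch term was possible, and the number of arrays limits the precision. The authors' value table of all samples lay within 1% of the scanner's signal for nearly all probes. It has no centring, its scale was found from that comparison, and its column medians were 72.38 for knockout on normal diet, 79.87 for wild type on normal diet, 89.16 for knockout on high-fat diet and 75.87 for wild type on high-fat diet.

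Control spots and spots with a feature outlier flag were left out, the log2 of the processed signal was averaged per probe, and each array's 75th percentile was subtracted. Of 39429 probes, 27508 were named by unversioned accession in a RefSeq table of assembly GRCm38.p6. The files' headers give another build, so only names and the order of genes were taken from this table, and promoter positions are those of the RefSeq promoter table. The brightest probe stood for each gene. With 1 array a group there is no test and no p-value.

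The members and all lists were chosen with earlier results of these data known. The named genes are the members, Cat, the 2 nearest measured genes on each side of a member, chromosome 2 genes past 2-fold on both diets, listed relatives, markers and the 3 nearest profiles of each member. Genes past 1.5-fold in the stretch after Cat and second probes were named after their values were seen. Python 3.11.15, numpy 2.4.6, pandas 2.3.3, matplotlib 3.10.9, R 4.3.3 and limma 3.58.1 were used. Alternatives covered scaling, background correction, outlier spots, the value table, the probe of a gene, the filter on dim probes and the size threshold.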

Additional observations from a re-analysis of the deposited data

Results flagged for a closer look

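The diet effect on Chst14, the dermatan sulfotransferase gene, had opposite signs in the genotypes. The log2 difference, high-fat minus normal diet, was 0.47 ± 0.21 in the knockout and -0.24 ± 0.23 in wild type. The wild-type difference was at about the size of the scanner error, so its sign is uncertain. Each genotype has 1 array per diet, so the difference between them was not tested.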

How the results depend on the processing

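Each member kept its sign on both diets under each alternative in which it was measured, which under the filter for probes well above background on all 4 arrays is 6 members and under the others 10. Of 172 single-gene values under alternatives, 152 moved by less than the scanner error, 20 by more and 0 changed sign. The farthest move, 2.76 on the log2 scale, came from averaging Capn3 with its second probe, which was not well above background. The knockout value was set to the lowest flagged signal before and after averaging, so this move is between bounds. Of 10 members at 2-fold on both diets, 8 remained with median scaling (without Bmf and Itpka), 9 with the mean of a gene's probes (without Capn3), 3 with normexp background correction on the median spot signal, 6 with only probes well above background on all 4 arrays (6 were then measured) and 3 at a 3-fold threshold. The normexp setting was chosen after seeing the data, because the files hold no mean spot signal for the one listed. With normexp the median member difference was -0.87 on normal and -0.86 on high-fat diet. With the all-array filter it was 0.014, of opposite sign, on normal diet and -0.23 on high-fat diet, over those 6 members. The 1 member at 2-fold between diets in the knockout became 0 under median scaling, quantile, cyclic loess, normexp and the all-array filter. The 75 genes at 2-fold on both diets became 40 with normexp, 231 with no filter on dim probes, 293 at 1.5-fold and 26 at 3-fold. The share of other chromosome 2 genes became 0.0907% with median scaling, 0.0906% with the mean of a gene's probes, 0% with normexp or at 3-fold, 1.36% with no filter and 2.18% at 1.5-fold. The share between Cat and Spata5l1 became 0.971% with no filter, for 1700054M17Rik and Patl2, and 9.24% at 1.5-fold. Over all measured genes without the members and Cat it was 1.05% with no filter and 1.98% at 1.5-fold. The cause of these moves was not tested. Median scaling shifted the median of all genes to 0.13 on normal and -0.09 on high-fat diet. No paired analysis was possible because each comparison sets 1 array against 1, with no replicate numbers to pair. A genotype fit with diet as a block would take the diet by genotype difference as its error and was not run. Signal over background limits Disp2, Capn3, Spata5l1 and Golm2 to bounds or large errors.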

Other observations

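Second probes of other genes between Cat and Spata5l1, picked here after their values were seen, sometimes differed from the brightest probe. Vps18, a vacuolar sorting gene, had log2 differences, knockout minus wild type, of 0.78 on normal diet and 0.66 on high-fat diet on its second probe, against 0.15 and 0.13 on its brightest. Hipk3, a kinase gene, had -1.29 and -0.35 on its second probe, against 0.08 and -0.12 on its brightest. Of 40 further probes of measured genes around Cat, 2 met the 2-fold rule on both diets, those of Cat and Slc1a2.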
